A study of Mus musculus with 5 samples.

Results

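The Hoxd cluster lies on mouse chromosome 2 and holds the genes Hoxd13, Hoxd12, Hoxd11, Hoxd10, Hoxd9, Hoxd8, Hoxd4, Hoxd3 and Hoxd1 in this order of rising coordinates, with Evx2 beside Hoxd13. The promoter contacts of these 10 genes were taken from 2 capture Hi-C tables, as every interaction within chromosome 2 in which either end carried a transcript name of 1 of them. Contacts were found for 7 of the 10 genes, among 9262 gene symbols named in the tables. Hoxd9, Hoxd10 and Hoxd12 named no end and were not analysed here. The table with the original baits, single restriction fragments of a median of 759 bp, held 15 such interactions of Evx2, Hoxd8, Hoxd4 and Hoxd3 among its 29421 within chromosomes. The table with the extended baits, bins of a median of 5324 bp, held 33 among 51524 and added Hoxd13, Hoxd11 and Hoxd1.

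The contacts were measured at E13.5 (days of embryonic development) in sorted supporting cells of the gonad. Sertoli cells, the supporting cells of the testis, came from Sox9IRES-GFP embryos in 3 libraries, and pre-granulosa cells, their counterpart in the ovary, from Enh8-mCherry embryos in 2 libraries, each of 100000 cells sorted by the reporter. Sox9 is the gene that marks Sertoli cells and carries the GFP, what drives the Enh8 reporter is not given in the labels, and neither is whether embryos were pooled. Capture Hi-C joins crosslinked DpnII fragments that were close in the nucleus and pulls out the products with a chosen fragment, the bait. The tables give 1 CHiCAGO score per interaction and cell type, so no value below has a replicate error, the effect of 3 against 2 libraries was not tested, no test across libraries could be made, and the read depth behind a score is unknown. A CHiCAGO score rises as the read pairs of 2 ends exceed a background that falls with distance. An interaction was called at a score of at least 5, and every listed interaction reaches 5 in at least 1 cell type. Where a contact is given with 2 scores and no labels, the Sertoli score comes first. Contacts do not show expression, so the cell types could not be checked against their marker genes here.

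HOX genes encode homeodomain transcription factors that give cells a position along the body axis, and Evx2 encodes a homeodomain protein of a related family. In limbs and other embryonic tissues, Hoxd genes are known to be controlled from the gene deserts on both sides, a centromeric landscape at lower coordinates that mainly serves Evx2, Hoxd13 and their neighbours, and a telomeric landscape at higher coordinates that mainly serves genes of the other end of the cluster. The tables show which of these landscapes the promoters touched in the supporting cells.

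Promoters of Evx2, Hoxd8 and Hoxd4, which had contacts with the deserts, are shown first, with the start of 2600014E21Rik, a long non-coding RNA gene in the telomeric desert, which lay in a bin contacted by Hoxd8. Each is the 250 bases before a RefSeq start (build GRCm38.p6), 5′ to 3′ on the strand of the gene, and capitals mark GATC, the DpnII site.
Evx2, chr2:74659558-74659807, minus strand: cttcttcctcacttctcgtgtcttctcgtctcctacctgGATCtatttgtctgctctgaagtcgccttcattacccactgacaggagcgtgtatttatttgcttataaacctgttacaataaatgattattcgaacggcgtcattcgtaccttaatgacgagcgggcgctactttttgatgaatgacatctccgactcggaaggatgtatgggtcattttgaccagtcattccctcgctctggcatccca
Hoxd8, chr2:74704365-74704614, plus strand: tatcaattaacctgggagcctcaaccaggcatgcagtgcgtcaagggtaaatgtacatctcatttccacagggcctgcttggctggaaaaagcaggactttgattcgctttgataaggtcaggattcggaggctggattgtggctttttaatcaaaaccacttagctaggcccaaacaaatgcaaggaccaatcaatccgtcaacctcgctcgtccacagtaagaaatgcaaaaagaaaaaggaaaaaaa
Hoxd4, chr2:74721728-74721977, plus strand: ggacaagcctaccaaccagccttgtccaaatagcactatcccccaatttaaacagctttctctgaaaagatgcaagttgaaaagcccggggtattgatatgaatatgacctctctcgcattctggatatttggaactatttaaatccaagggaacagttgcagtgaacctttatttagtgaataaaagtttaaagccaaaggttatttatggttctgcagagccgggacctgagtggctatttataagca
2600014E21Rik, chr2:75137405-75137654, plus strand: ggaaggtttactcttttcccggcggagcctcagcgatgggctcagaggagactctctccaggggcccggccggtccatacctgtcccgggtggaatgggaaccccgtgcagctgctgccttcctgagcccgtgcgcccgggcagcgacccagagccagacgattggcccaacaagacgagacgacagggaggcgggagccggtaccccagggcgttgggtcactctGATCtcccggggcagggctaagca
The site in the Evx2 window starts at base 74659765, and the original Evx2 bait ends at the base before it, so the window crosses a border of the captured fragment. The Hoxd8 and Hoxd4 windows hold 0 such sites and lie inside the Hoxd8-203 and Hoxd4-201 baits. The promoter of Hoxd4-202, which had the longest Hoxd4 contacts, is not shown. GATC is found in 41.9% of all 32851 RefSeq windows. The G and C content of the 3 promoters was below the median, with 45.6% for Evx2, 44.4% for Hoxd8 and 40.4% for Hoxd4 against a median of 52.4%. They held 14, 6 and 3 CpG dinucleotides in the same order, and the median window held 6. The promoters with only shorter contacts varied too. Hoxd13 had 74.4% and 31 CpG, Hoxd1 71.6% and 24, and the 2 Hoxd11 windows 44.8% and 60.4% with 2 and 20.

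With the original baits, the contacts of the Hoxd promoters were mostly long. Of the 15 interactions, 13 (86.7%, 95% Wilson interval 62.1 to 96.3) spanned 200 kb or more, against 6.71% of all interactions within chromosomes. Their median distance was 377.96 kb and that of all interactions 40.7 kb. The original table seldom lists contacts between 2 baits (0.0986% of all and 0 of the 15). Short contacts among the cluster promoters are therefore largely absent from these shares. Outside the cluster, Evx2 had contacts only at lower coordinates, and Hoxd8, Hoxd4 and Hoxd3 only at higher coordinates. Of the 6 baits, 5 had a contact at 200 kb or more, against 12.3% of all 7915 baits. With the extended baits it was 6 of 11, against 16.5% of all 11452. Wilson intervals cover counting error only, and neighbouring bins are not independent.

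**Figure D1:**
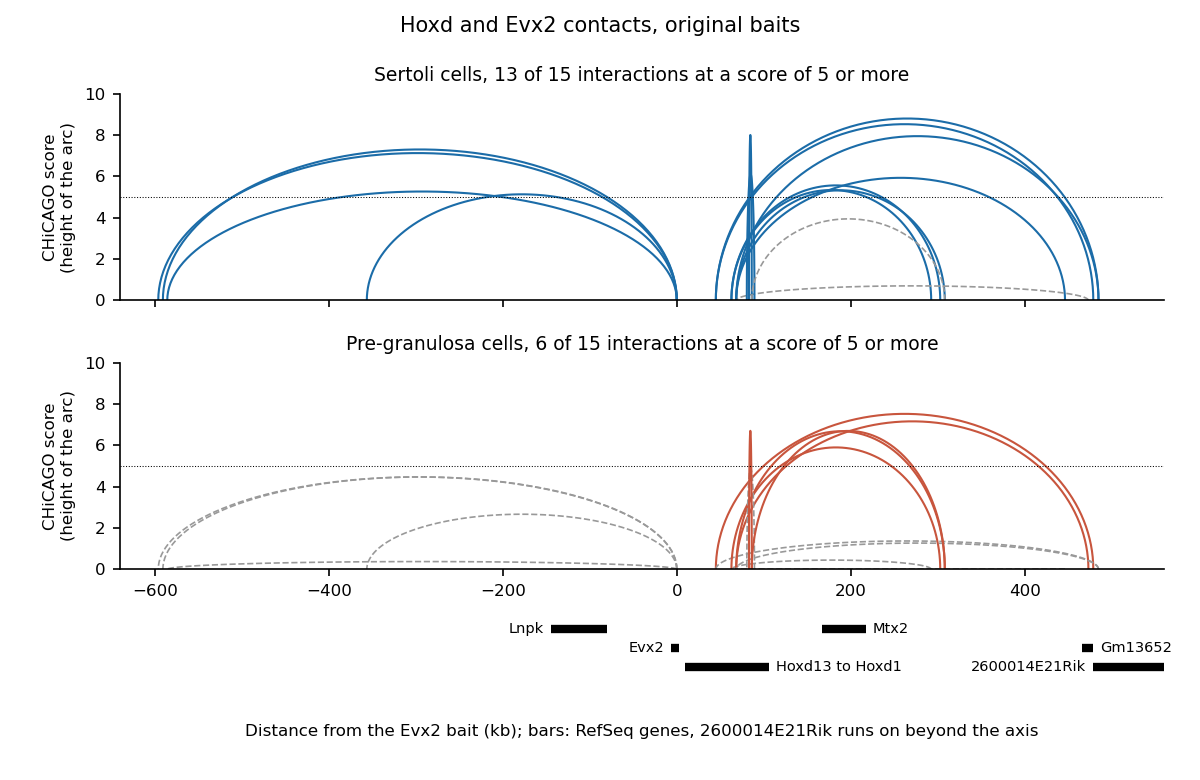
Arcs join each Hoxd or Evx2 bait with its other end in the original table, for Sertoli cells (upper panel) and pre-granulosa cells (lower panel). The x axis is the distance from the Evx2 bait in kb, the height of an arc is its CHiCAGO score, dashed grey arcs are scores under 5, and the bars are RefSeq genes. All arcs from Evx2 run to the left and all long arcs from Hoxd8, Hoxd4 and Hoxd3 run to the right.

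Across the 15 interactions, 13 were called in Sertoli cells, 6 in pre-granulosa cells and 4 in both. All interactions of the table were called in Sertoli cells in 79.5%, in pre-granulosa cells in 42.0% and in both in 21.5%. The Hoxd shares, 86.7% (62.1 to 96.3), 40.0% (19.8 to 64.3) and 26.7% (10.9 to 51.95), lay near these values. The median difference of log2(score + 1), Sertoli minus pre-granulosa, was 0.57 with a range from -2.26 to 2.79, and over all interactions it was 0.68. The score was higher in Sertoli cells for 11 and in pre-granulosa cells for 4 of the 15, against 71.6% and 28.4% of all interactions. Calls in Sertoli cells only numbered 9 (58.0% of all) and calls in pre-granulosa cells only 2 (20.5% of all). The original table as a whole leaned towards Sertoli calls, and the Hoxd interactions leaned that way to a like degree. Some calls rested on small margins, since the higher score was under 6 in 5 of the 15 (39.1% of all), and of the 11 called in 1 cell type 4 had at least 3 in the other cell type and 4 had under 1.

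**Figure D2:**
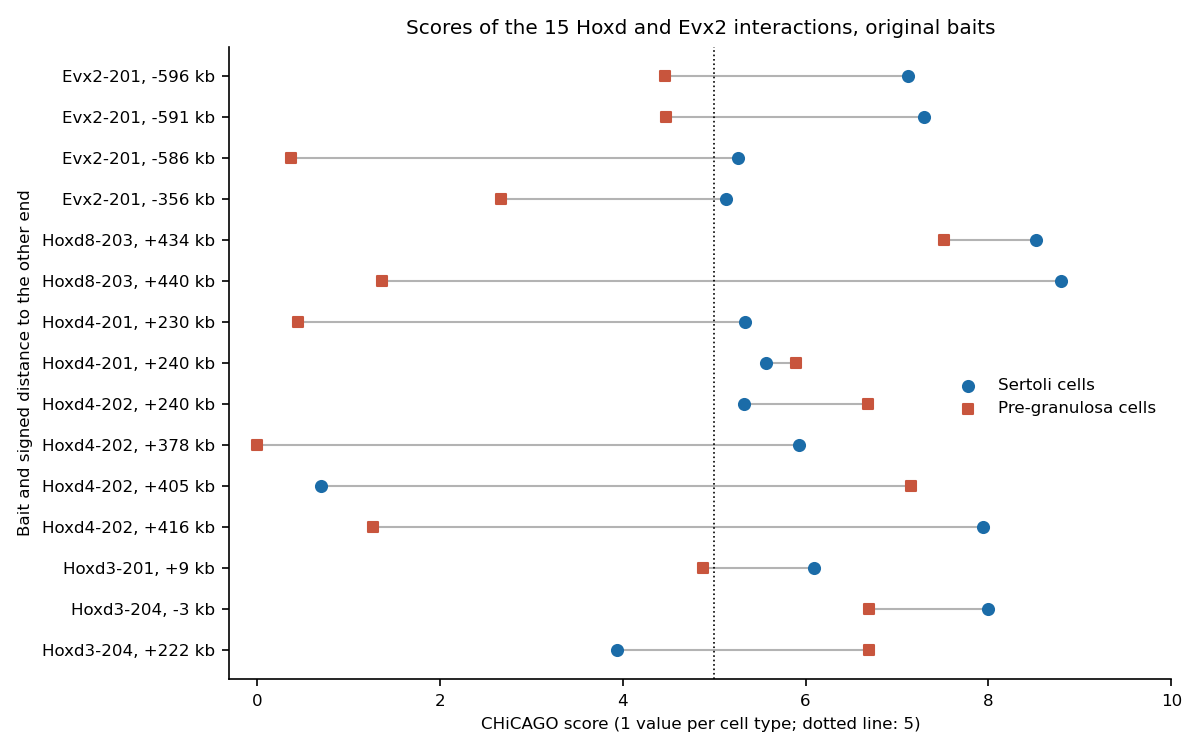
CHiCAGO scores of the 15 interactions in Sertoli cells (circles) and pre-granulosa cells (squares), labelled by the bait transcript and the signed distance to the other end in kb. The dotted line marks a score of 5. All 4 Evx2 interactions lie to the right of it in Sertoli cells only, while 3 of the 9 long interactions of Hoxd8, Hoxd4 and Hoxd3 do so in both cell types.

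The 4 Evx2 contacts were called in Sertoli cells only. The Evx2 bait (chr2:74658724-74659764) contacted 3 adjoining bins between 585.7 and 596.04 kb away. From 74060428 to 74065982 the score was 7.12 in Sertoli and 4.47 in pre-granulosa cells. From 74065983 to 74071019 it was 7.30 and 4.47, and from 74071020 to 74076102 it was 5.27 and 0.378. In the 2 bins farther from Evx2 the pre-granulosa score lay just under the threshold, and in the nearest it was close to 0. No RefSeq gene overlaps these bins, which lie between the non-coding genes Gm31472, ending at 73978427, and Gm31534, starting at 74203081. The remaining Evx2 contact lay 356.3 kb away, inside the long non-coding RNA gene 4930441J16Rik (bin from 74299989 to 74305869), with 5.13 in Sertoli and 2.67 in pre-granulosa cells. Among all interactions of at least 200 kb in the table, 69.0% were called in Sertoli cells only, so a contact of this length called in Sertoli cells alone was the common case. The extended bait of Evx2 did not list the contact inside 4930441J16Rik and gave the 3 adjoining bins again, with scores of 7.27, 7.34 and 5.04 in Sertoli cells against 4.41, 4.41 and 0.228 in pre-granulosa cells. Both tables come from the same libraries, so this is no independent measurement.

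Lnpk, which encodes a protein of the endoplasmic reticulum and lies between the centromeric desert and Evx2, shared 1 of these bins. Lnpk-206 contacted the bin from 74065983 to 74071019 over 511.2 kb at 5.84 in Sertoli and 0 in pre-granulosa cells, with the original bait only. The Lnpk promoter also contacted the bin from 74644806 to 74650309, just below the Evx2 gene, with scores of 3.97 in Sertoli and 6.71 in pre-granulosa cells. The bin before it, from 74639445 to 74644805, had 1.62 and 5.26. With the extended bait Lnpk also contacted the bin from 74660607 to 74666202, partly in the Evx2 gene, at 1.07 and 5.05. These 3 nearer contacts were called in pre-granulosa cells only, and the distant Lnpk contact in Sertoli cells only. Calls in pre-granulosa cells only made up 20.5% of all original interactions and 11310 of all 51524 extended ones.

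Hoxd13 and Hoxd11, which pattern distal limb and genital structures, had contacts with Evx2 only. They appeared in the extended table, where the Hoxd13-201 bin (chr2:74666203-74672833) contacted the Evx2 bin 11.5 kb away with 9.89 in Sertoli and 8.53 in pre-granulosa cells. The Hoxd11-202 bin (chr2:74678856-74683951) contacted the same Evx2 bin over 23.4 kb with 8.96 and 5.09. Both cell types called these 2 contacts, with the higher score in Sertoli cells. Read from the Evx2 bin as bait, the contact with Hoxd13 had 4.16 in Sertoli and 5.25 in pre-granulosa cells, so the cell type with the higher score depended on the end taken as bait.

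Hoxd8, a gene of the middle of the cluster, had the longest contacts with the telomeric desert, at up to 439.9 kb. The Hoxd8-203 bait (chr2:74703562-74704643) contacted the bin from 75135013 to 75140934, 433.9 kb away, with 8.52 in Sertoli and 7.52 in pre-granulosa cells. This bin holds the start of 2600014E21Rik shown above and starts of Gm13652, a long non-coding RNA gene on the opposite strand. It was called in both cell types. The adjoining bin from 75140935 to 75146997, inside 2600014E21Rik, had 8.80 in Sertoli and 1.37 in pre-granulosa cells. The Hoxd8 scores in the first bin were above those of 82.5% of all interactions of at least 200 kb in Sertoli cells and of 91.1% in pre-granulosa cells. With the extended bait the 2 bins had scores of 6.82 and 7.12 in Sertoli cells against 7.47 and 1.30 in pre-granulosa cells, and the calls were the same.

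Hoxd4, which helps to pattern the neck vertebrae, was captured at 2 promoters and contacted 2 zones of the telomeric desert. The nearer zone lay between 229.7 and 240.04 kb away and holds no RefSeq gene between Gm14427, ending at 74887077, and Gm46748, starting at 75061610. The Hoxd4-201 bait (chr2:74721418-74722606) contacted its bin from 74959403 to 74964699 with 5.56 in Sertoli and 5.90 in pre-granulosa cells. The Hoxd4-202 bait (chr2:74726615-74728418) contacted the next bin, from 74964700 to 74969906, with 5.33 and 6.68. Both contacts were called in both cell types. Hoxd4-201 also contacted the bin from 74949148 to 74954174, with 5.34 in Sertoli and 0.449 in pre-granulosa cells.

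In the farther zone, the Hoxd4-202 contacts fell on different bins in the cell types. The bin from 75129738 to 75135012, inside Gm13652, had 0.705 in Sertoli and 7.16 in pre-granulosa cells. The bin from 75140935 to 75146997, inside 2600014E21Rik, had 7.94 in Sertoli and 1.27 in pre-granulosa cells. The bin between them, which Hoxd8 contacted in both cell types, was not listed for Hoxd4. A further bin from 75102478 to 75108483 had 5.93 in Sertoli and 0 in pre-granulosa cells, where a 0 can stand for a value that was not computed. The extended Hoxd4-202 bait kept the opposite pattern, with 0 and 6.56 in the bin inside Gm13652 and with 6.56 and 0.943 in the bin inside 2600014E21Rik. It did not list the bin from 75102478, and the extended Hoxd4-201 bait did not list the bin from 74949148. Whether the zone contacted differs between the cell types beyond the spread between libraries could not be tested, and the bins touch the one that Hoxd8 contacted in both.

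Mir10b, a microRNA gene between the 2 captured Hoxd4 fragments (chr2:74726070-74726137), lay in the extended Hoxd4-201 bin. Its 5p product is shown because it is a further gene product of that bin, with its seed (bases 2 to 8) in capitals, from RefSeq.
mmu-miR-10b-5p: uACCCUGUagaaccgaauuugug
The contacts of that bin cannot be assigned to Hoxd4 or to Mir10b.

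Hoxd3, which also acts in the vertebrae of the neck, has several promoters, and its transcribed region spans Hoxd4 in RefSeq (74711993 to 74748271 and 74721978 to 74729160). Of its original baits, Hoxd3-204 reached the nearer zone. The Hoxd3-204 bait (chr2:74745012-74745786) contacted the bin from 74964700 to 74969906, the same as Hoxd4-202, over 221.9 kb, with 3.94 in Sertoli and 6.69 in pre-granulosa cells. Within the Hoxd3 gene it contacted the bin from 74739840 to 74744490, only 3.23 kb away, with 8.00 and 6.70. The Hoxd3-201 bait contacted the bin from 74745787 to 74751218, over 8.78 kb, at the boundary of Hoxd3 and the non-coding gene Haglr, with 6.09 and 4.88. These last 2 were the only interactions inside the cluster that the original table listed. Its other ends carry a bait name in 0.0986% of all interactions and in 0 of the 15.

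In the extended table the nearer zone was contacted by Hoxd4 and Hoxd3 with higher scores in pre-granulosa cells throughout. Hoxd4-201 and the bin of Hoxd3-205 and Hoxd3-202 contacted the bin from 74958844 to 74964699, with scores of 4.20 and 4.45 in Sertoli cells against 8.03 and 6.87 in pre-granulosa cells. Hoxd4-202 and Hoxd3-204 contacted the bin from 74964700 to 74969906, with scores of 4.14 and 2.88 in Sertoli cells against 6.03 and 6.50 in pre-granulosa cells. All 4 were called in pre-granulosa cells only, as were 26.6% of all extended interactions of at least 200 kb. The shared call of Hoxd4-202 with its original bait thus became a call in 1 cell type, as its Sertoli score moved from 5.33 to 4.14 across the threshold.

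Contacts among promoters of the cluster were listed with the extended baits only, which are bins that may hold more than the promoter. Of the 33 interactions, 17 stayed inside the cluster, 3 ran to the lower and 13 to the higher flank. Inside, 10 were called in Sertoli cells, 16 in pre-granulosa cells and 9 in both. For the extended table as a whole, 78.0% of the interactions were called in Sertoli cells, 56.3% in pre-granulosa cells and 34.3% in both. Of the 22 Hoxd interactions between 2 named promoters, Mtx2 included, 12 were called in Sertoli cells (54.5%, 34.7 to 73.1), 21 in pre-granulosa cells (95.5%, 78.2 to 99.2) and 11 in both. Among all 28243 promoter-to-promoter interactions the shares were 78.7%, 62.4% and 41.1%. The median difference of log2(score + 1) was -0.24 for the 22 and 0.35 for all. The 22 spanned a median of 15.7 kb and all 49.8 kb, and the comparison was not matched for distance. The 22 hold 6 pairs of ends listed from both sides, so the 16 distinct pairs were also counted once, at the higher score in each cell type, a count added after the data were seen. Then 10 were called in Sertoli cells (62.5%, 38.6 to 81.5) and 15 in pre-granulosa cells (93.8%, 71.7 to 98.9), against 80.9% and 62.1% of all 18623 distinct pairs. At the threshold used, more of the Hoxd pairs were called in pre-granulosa than in Sertoli cells by either count. In the table as a whole the reverse holds, and no test across libraries could be made. Many of the calls rested on small margins. Of the 33 interactions, 21 were called in 1 cell type. Among these 21, the score in the other cell type was at least 3 in 12 and under 1 in 4. Higher thresholds were applied to the original table only, so whether the contrast holds above the threshold used was not tested.

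**Figure D3:**
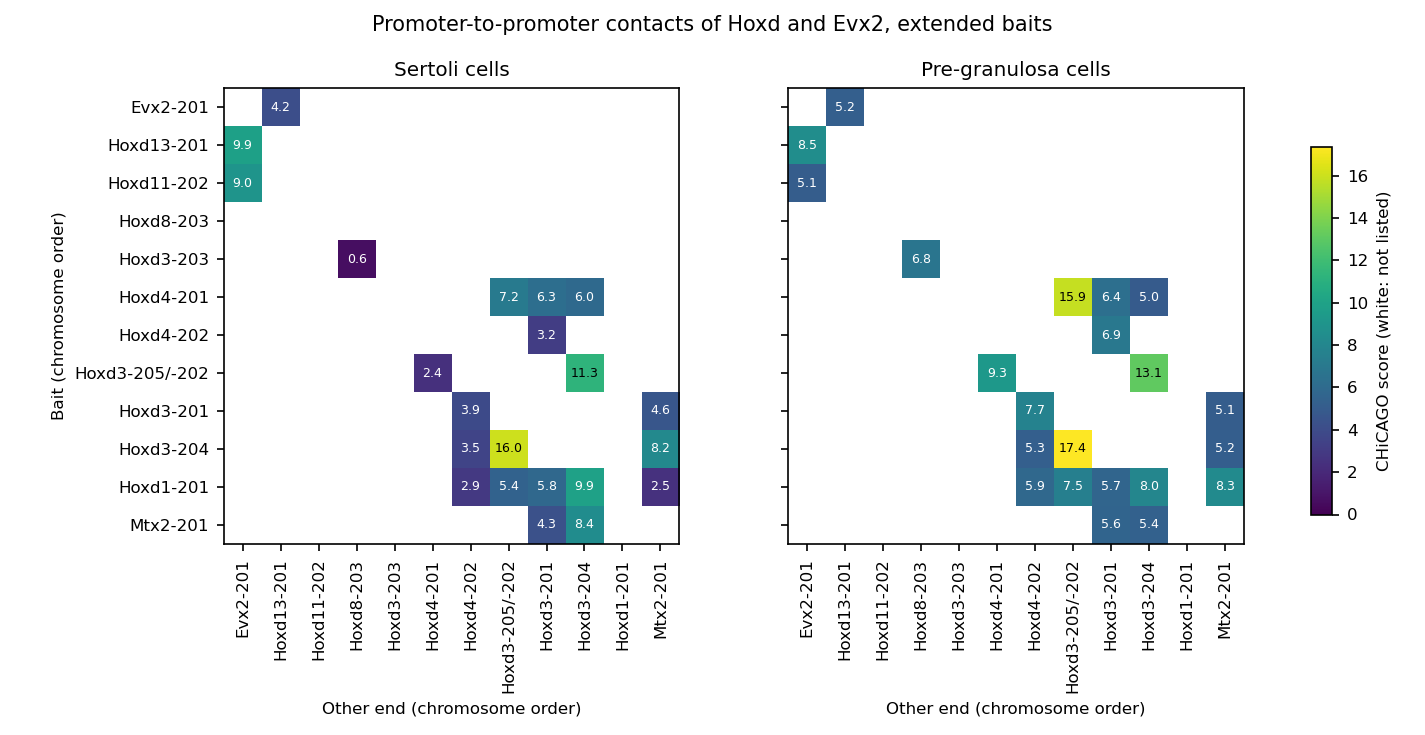
CHiCAGO scores between named promoter bins in the extended table, with baits in rows and other ends in columns in chromosome order, for Sertoli cells (left) and pre-granulosa cells (right). White cells were not listed, and the highest values are those between Hoxd3-204 and the bin of Hoxd3-205 and Hoxd3-202, at 16.03 and 17.4. No cell joins Evx2, Hoxd13 or Hoxd11 with Hoxd8, Hoxd4, Hoxd3 or Hoxd1.

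Between Evx2, Hoxd13 and Hoxd11 on one side and Hoxd8, Hoxd4, Hoxd3 and Hoxd1 on the other, 0 contacts were listed. This grouping was drawn from the same contacts, so the counts below are a description only. Hoxd13 and Hoxd11 each contacted Evx2. Hoxd4, Hoxd1 and the Hoxd3 bins other than Hoxd3-203 contacted each other or Mtx2. Inside the cluster Hoxd8-203 was joined only to Hoxd3-203, with 0.634 in Sertoli and 6.78 in pre-granulosa cells. Hoxd3-203 had no other listed contact, so these bins stood apart from the rest, and the Sertoli score of their contact was under the threshold. Among Hoxd8, Hoxd4, Hoxd3 and Hoxd1, 14 interactions lay inside the cluster. Of these, 8 passed the threshold in Sertoli cells and 13 did so in pre-granulosa cells, against 78.7% and 62.4% of all promoter-to-promoter interactions. The pre-granulosa score was the higher one in 11 of the 14, against 36.9% of all, and in 8 of their 11 distinct pairs, against 34.9%. Hoxd9, Hoxd10 and Hoxd12, which lie between Hoxd13 and Hoxd8, were not analysed here, so no border can be placed.

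The contacts of Hoxd4 inside the cluster had the higher score in pre-granulosa cells in 7 of 8 interactions, or 5 of 6 distinct pairs, against 36.9% of all promoter-to-promoter interactions and 34.9% of all distinct pairs. This subset was not set out beforehand, so its counts are a description only. Hoxd4-201 contacted the bin of Hoxd3-205 and Hoxd3-202, 10.2 kb away, with 7.17 in Sertoli and 15.9 in pre-granulosa cells. Taken from the Hoxd3 side, the same pair had 2.44 and 9.28. Hoxd4-202 contacted the Hoxd3-201 bin with 3.16 and 6.93, and from the Hoxd3 side with 3.90 and 7.67. The 2 scores of Hoxd4-201 with Hoxd3-201, 6.27 and 6.36, were close, and Hoxd3-204 with Hoxd4-202 had 3.53 and 5.25. The exception was the contact of Hoxd4-201 with Hoxd3-204, at 5.96 in Sertoli and 4.97 in pre-granulosa cells. Hoxd3-203 contacted Hoxd8-203 over 11.1 kb with 0.634 in Sertoli and 6.78 in pre-granulosa cells, the widest gap inside the cluster on the log2 scale (-2.25).

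A pair of Hoxd3 bins had the highest scores of the cluster in both cell types. The bin of Hoxd3-205 and Hoxd3-202 as bait contacted Hoxd3-204 with 11.3 in Sertoli and 13.1 in pre-granulosa cells, and with Hoxd3-204 as bait the scores were 16.03 and 17.4. These promoters belong to 1 gene and lie 10.4 kb apart.

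Hoxd1, the last gene of the cluster, had 5 contacts, of which 3 reached the threshold in Sertoli cells and all 5 in pre-granulosa cells, where 78.7% and 62.4% of all promoter-to-promoter interactions did so. The Hoxd1-201 bin (chr2:74757582-74763531) contacted Hoxd3-204 with 9.94 in Sertoli and 7.96 in pre-granulosa cells, Hoxd3-201 with 5.85 and 5.66, and the bin of Hoxd3-205 and Hoxd3-202 with 5.44 and 7.50. Its contact with Hoxd4-202 had 2.91 and 5.88. The contact with Mtx2, 64.5 kb away, had 2.47 in Sertoli and 8.31 in pre-granulosa cells. Most of the Hoxd1-201 bin lies in Haglr, which ends at 74762896, before Hoxd1 starts at 74762980. The contacts of the bin cannot be assigned to Hoxd1 or to Haglr.

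Mtx2, which encodes a mitochondrial outer membrane protein and borders the telomeric desert, was the only named promoter outside the cluster that the Hoxd promoters contacted. Hoxd3-204 and Mtx2-201 lay 80.4 kb apart and had 8.16 in Sertoli and 5.17 in pre-granulosa cells, or 8.43 and 5.42 with Mtx2 as bait. Hoxd3-201 and Mtx2-201 had 4.61 and 5.14, or 4.28 and 5.61. Pre-granulosa cells had a call in all 5 of these interactions, Hoxd1 included, and Sertoli cells in 2, against the 62.4% and 78.7% above. The 5 are 3 distinct pairs, with 1 Sertoli and 3 pre-granulosa calls, against 80.9% and 62.1% of all distinct pairs. The original Mtx2 bait contacted the bin from 74739840 to 74744490, inside Hoxd3, with 5.62 in Sertoli and 4.79 in pre-granulosa cells.

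Pairs listed from both ends show how far a score moves with the choice of bait. The 6 such Hoxd pairs changed by a median of 2.73 in Sertoli and 2.01 in pre-granulosa cells, against 2.42 and 1.59 for all 9620 such pairs of the extended table. The Sertoli call changed in 2 of the 6 pairs (12.3% of all pairs) and the pre-granulosa call in 0 of 6 (12.2% of all). The cell type with the higher score was the same from both ends in 5 of the 6 pairs, with Evx2 and Hoxd13 as the exception. The difference between the cell types, Sertoli minus pre-granulosa, moved by a median of 0.657 between the readings of a Hoxd pair and of 1.39 over all such pairs. Of the 22 Hoxd promoter-to-promoter interactions, 3 had a smaller difference than 0.657 and 8 a smaller one than 1.39.

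**Figure D4:**
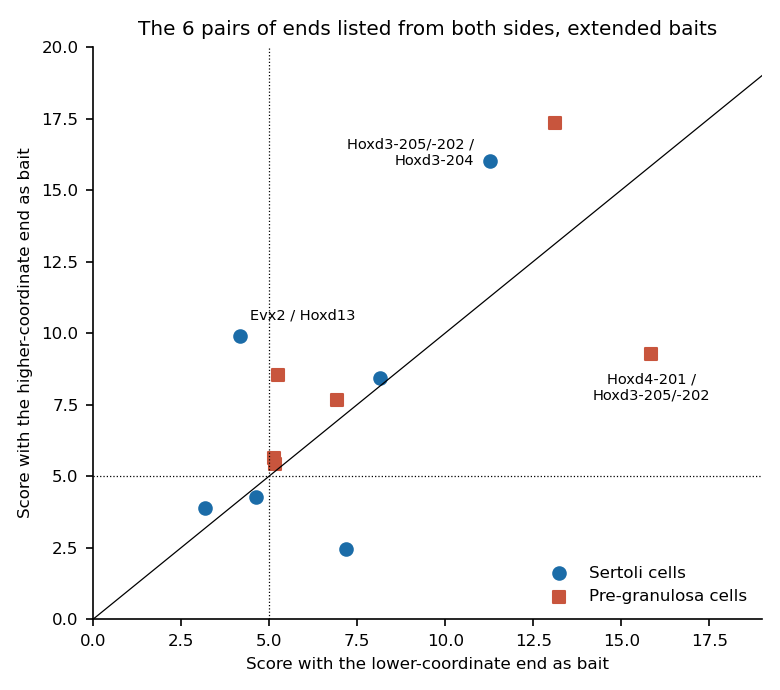
Each point is 1 pair of promoter bins in 1 cell type, with its score when the lower-coordinate end is the bait (x axis) and when the higher-coordinate end is the bait (y axis), and the solid line marks equal scores. The Sertoli scores of Evx2 with Hoxd13, 4.16 and 9.89, and of Hoxd4-201 with the bin of Hoxd3-205 and Hoxd3-202, 7.17 and 2.44, lie on opposite sides of the dotted threshold of 5.

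The direction of the cell-type difference depended on the table. Over the 33 interactions of the extended table, 18 were called in Sertoli cells (54.5%, 37.99 to 70.2) and 27 in pre-granulosa cells (81.8%, 65.6 to 91.4), and the median difference of log2(score + 1) was -0.20 against 0.43 for all interactions. The score was higher in Sertoli cells in 12 of them (65.0% of all) and in pre-granulosa cells in 21 (35.0% of all). Among the interactions at 200 kb or more, the original table had 11 Sertoli and 5 pre-granulosa calls and 3 in both of 13, where all such interactions had 82.6%, 31.0% and 13.6%. The extended table had 6, 6 and 1 of 11, where all such interactions had 73.4%, 46.7% and 20.1%. The interactions at this distance were 33.3% of the Hoxd interactions in the extended table, against 6.52% of all. Of the 9 interactions with the same bait and the same bin in both tables, 8 had the same calls, Hoxd4-202 with the nearer zone being the other. Hoxd4-201 with the nearer zone, whose bin starts at 74959403 in the original and at 74958844 in the extended table, likewise turned from a call in both (5.56 and 5.90) to pre-granulosa cells only (4.20 and 8.03). In the 6 of the 9 at the higher flank, the original Sertoli score was above the extended one by 0.705 to 1.71 and the original pre-granulosa score by 0.046 to 0.65. Hoxd8 with the bin from 75135013 had the higher score in Sertoli cells in the original table and in pre-granulosa cells in the extended one.

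The Hoxa cluster with Evx1 on chromosome 6, another HOX cluster with baits in the tables, was set beside Hoxd. With the original baits it had 21 interactions, of which 7 (33.3%, 17.2 to 54.6) spanned 200 kb or more, against 13 of 15 for Hoxd. It had 12 Sertoli (57.1%) and 15 pre-granulosa calls (71.4%), against 79.5% and 42.0% of all interactions. With the extended baits it had 65 interactions, of which 13 spanned 200 kb or more, against 6.52% of all, and 37 and 53 were called in the cell types. A contact of this length was found for 3 of its 7 original and 6 of its 13 extended baits. For Hoxd these were 5 of 6 and 6 of 11. In the extended table both clusters had more pre-granulosa than Sertoli calls, with 54.5% Sertoli and 81.8% pre-granulosa calls for Hoxd and 56.9% and 81.5% for Hoxa, against 78.0% and 56.3% of all interactions. Between named promoters Hoxa had 34 Sertoli and 41 pre-granulosa calls in 52 interactions (65.38% and 78.85%, against 78.7% and 62.4% of all). Its median difference of log2(score + 1) was -0.27 there, beside -0.24 for the 22 of Hoxd.

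**Figure D5:**
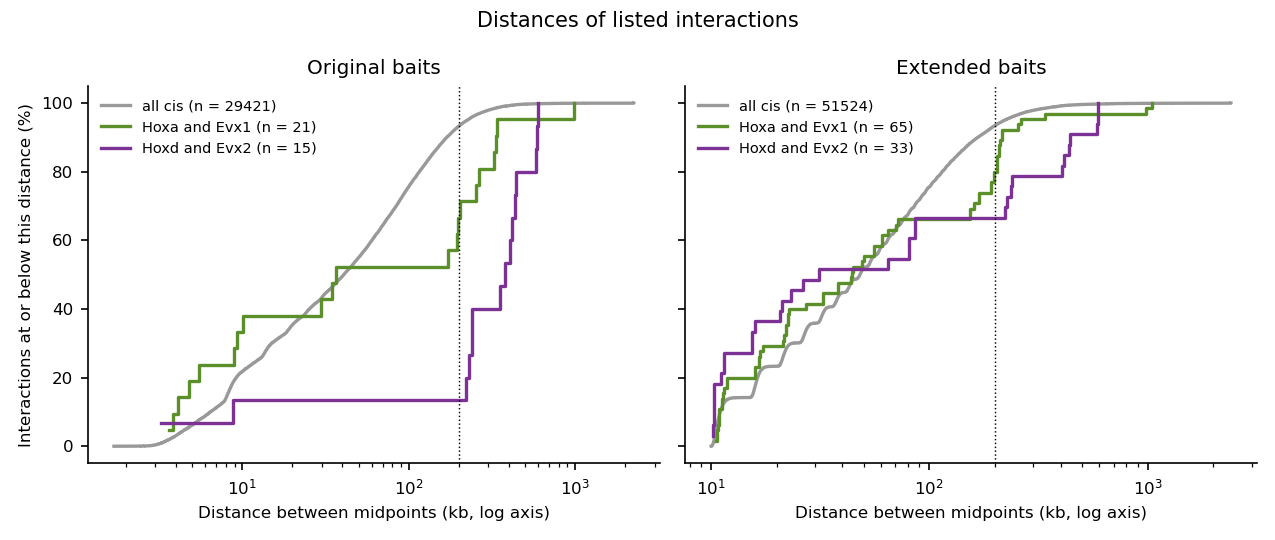
Cumulative share of listed interactions by the distance between their ends (kb, log axis) in the original table (left) and the extended table (right), for all interactions within chromosomes, for Hoxa and Evx1, and for Hoxd and Evx2. The dotted line marks 200 kb, below which lie 2 of the 15 original and 22 of the 33 extended Hoxd interactions.

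Of 22 neighbouring genes of the Hoxd landscapes, 11 had interactions in the original table and 13 in the extended table. Their 39 original interactions held 22 Sertoli and 25 pre-granulosa calls, a share of 56.4% and 64.1% against 79.5% and 42.0% of all interactions, and their 67 extended interactions 38 and 48, a share of 56.7% and 71.6% against 78.0% and 56.3%. Beyond the deserts, Chn1, which encodes a regulator of Rac signalling, had 4 Sertoli and 9 pre-granulosa calls in 10 original interactions. Ttc30a1, which encodes a protein of ciliary transport, had 6 and 1 in 6. Lnpk and Mtx2 were the only 2 of these genes whose listed contacts touched the Hoxd cluster or a bin that a Hoxd promoter contacted.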

How the data were processed

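The deposited tables hold CHiCAGO scores of DpnII capture Hi-C interactions, 1 column per cell type that stands for all its libraries, per the labels' sample descriptions. The authors named CHiCAGO, bins of 5 kb and a score of 5 in the names of the tables, and mm10 is the build per the submitters' processing notes. Caller version, read filters and the way libraries were combined were not given in the sources used here. All 1091 original bait starts inside RefSeq promoter windows (GRCm38.p6) fell exactly on GATC, so RefSeq coordinates were used with the tables. Transcript names were reduced to gene symbols, interactions between chromosomes are not reported here, and the cluster was taken from the lowest to the highest end named by a member (74655422 to 74763531). Members and lists were chosen with earlier results of these data known. Each flank contact, each contact between named promoters and the strongest contact of each bait is described. Counting was checked on a simulated table. Alternatives were thresholds of 7 and 10, a distance of at least 20 kb, leaving out scores of 0, the inverse hyperbolic sine in place of log2(score + 1), the extended baits and, added after the data were seen, pairs of ends counted once. Python 3.11.15, pandas 2.3.3 and statsmodels 0.14.6 were used.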

Additional observations from a re-analysis of the deposited data

How the results depend on the processing

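The numbers of Hoxd and Evx2 interactions depended on the threshold and on the table. At a threshold of 7 the original table kept 6 Sertoli calls, 2 pre-granulosa calls and 1 call in both, with 1 interaction inside the cluster, 2 with the lower and 4 with the higher flank. At 10 each of these counts was 0, and neither threshold was applied to the extended table. A distance of at least 20 kb left 0 interactions inside the cluster. The extended baits gave 27 pre-granulosa calls, 12 calls in both and 17 interactions inside, and counting each pair of ends once gave 21 and 10. The median difference of log2(score + 1), 0.57, had a 95% order-statistic interval over the 15 interactions from -0.07 to 2.05. That interval takes interactions as independent, which neighbouring bins are not, so it is no test between the cell types. With the extended baits the median turned to -0.20. The causes were not tested. The other alternatives kept counts within 1.5 times. No paired analysis was possible because the scores of a cell type stand in a single column, and no library could be left out for the same reason. Without read counts, depth limits cannot be stated.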

Other observations

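The contacts of genes for partners and regulators of HOX proteins were counted, and the shares below stand beside 79.5% Sertoli and 42.0% pre-granulosa calls over all original interactions and 78.0% and 56.3% over all extended ones. Of 9 genes of the PBX, MEIS and PKNOX families, whose proteins bind DNA together with HOX proteins, 3 had interactions in the original table, with 5 Sertoli and 5 pre-granulosa calls in 9 interactions (55.6% each). Meis2 had 2 and 1, Pknox2 had 3 and 3, and Pbx3 had 0 and 1. With the extended baits 4 had interactions, Pbx4 added, with 8 and 10 calls in 16 (50.0% and 62.5%). Of 9 genes for Polycomb and trithorax regulators of HOX genes and for CTCF, 4 had interactions in the original table, with 20 Sertoli and 19 pre-granulosa calls in 28 (71.4% and 67.9%). Ezh2, which encodes the methyltransferase of Polycomb complex PRC2, held 21 of the 28. With the extended baits 6 had interactions, Eed with 3 and Ctcf with 5 added, with 26 and 37 calls in 49 (53.1% and 75.5%).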
